A study of Mus musculus with 12 samples.

Results

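Chromatin accessibility at intergenic sites far from promoters was examined in 12 ATAC-seq libraries of hernia-associated fibroblasts (HAFs). A region was taken where peaks of q of 0.05 or less overlapped or touched in at least 4 of 5 lists, those of vehicle replicates 1 and 3 and of replicate 1 of E2, E2 plus fulvestrant and fulvestrant. Its midpoint lay over 3000 bp from every transcript start of GENCODE M21 and outside all gene bodies, and it lacked a peak in at least 1 of the 12 lists. This left 1517 intergenic members of 10697 reproducible regions, the others being 7798 promoter regions and 1382 distal regions within genes. The members were thus chosen by their peaks in the 5 lists, so calls and fold enrichments in those 5 are given as a description. Calls in the other 7 libraries took part in the choice only through the removal of 248 intergenic regions with a peak in all 12 lists.

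All libraries came from primary fibroblasts of the lower abdominal muscle (LAM) of Aromhum mice, a transgenic line that expresses human aromatase and so converts androgen to estrogen in muscle. There were 3 libraries for each of 4 treatments: vehicle (ethanol and DMSO), E2 at 10 nM, E2 at 10 nM with fulvestrant at 100 nM, and fulvestrant at 100 nM alone, each labelled 1 hour. Per the methods of the study, fulvestrant or DMSO was given for 3 hours before E2 or ethanol, and the fibroblasts were those that stuck to the dish, passaged once and starved of serum. No library came from mice without the transgene, and the labels name no age and no animal or culture for a library, so the spread between replicates may be technical.

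ATAC-seq marks DNA that a transposase can reach. Open DNA away from promoters often holds enhancers, where transcription factors bind and act on genes that can lie far along the chromosome. In fibroblasts many enhancers carry sites for AP-1, a dimer of Fos and Jun proteins, for TEAD factors, the partners of YAP, and for RUNX factors. The estrogen receptor, which E2 activates and fulvestrant blocks and degrades, binds the estrogen response element (ERE), a palindrome of GGTCA and TGACC with 3 bases between. Sites in repeated DNA need care, because reads from many copies can be placed on a single copy.

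The sequences of 6 members show the kinds of DNA in the set. Each runs 100 bases to either side of the summit of the member's strongest peak in the 5 lists, on the plus strand of GRCm38 (mm10). Capitals mark the AP-1 letters TGANTCA in the Lnx1 member, and full EREs in the Pgrmc2, Med13l and Rybp members. The TEAD letters GGAATG in the Med13l member are also in capitals. Other motif letters counted below were left in lower case, such as the E-box CAGCTG in the Med13l member and the GC box GGGCGG in the Fos member. The Peg10 member was among the 10 with peaks in the most lists, the Lnx1 member opened a run of 5 members, and the Fos member had the highest fold enrichment among members assigned to the listed genes. Each is named by the nearest protein-coding gene.
Peg10 member, chr6:4762359-4762559: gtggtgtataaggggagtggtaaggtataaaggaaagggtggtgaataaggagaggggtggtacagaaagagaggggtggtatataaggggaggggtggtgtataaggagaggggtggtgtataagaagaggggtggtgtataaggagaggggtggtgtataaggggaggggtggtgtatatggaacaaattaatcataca
Lnx1 member, chr5:74775617-74775817: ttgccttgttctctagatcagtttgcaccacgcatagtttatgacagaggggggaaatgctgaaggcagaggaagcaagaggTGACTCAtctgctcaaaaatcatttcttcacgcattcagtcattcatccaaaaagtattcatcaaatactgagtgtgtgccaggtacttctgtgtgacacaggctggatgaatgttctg
Fos member, chr12:85455288-85455488: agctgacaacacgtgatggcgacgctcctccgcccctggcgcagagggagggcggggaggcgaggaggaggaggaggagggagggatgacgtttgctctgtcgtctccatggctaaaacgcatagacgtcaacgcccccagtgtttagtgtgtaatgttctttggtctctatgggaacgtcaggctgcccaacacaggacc
Pgrmc2 member, chr3:41182664-41182864: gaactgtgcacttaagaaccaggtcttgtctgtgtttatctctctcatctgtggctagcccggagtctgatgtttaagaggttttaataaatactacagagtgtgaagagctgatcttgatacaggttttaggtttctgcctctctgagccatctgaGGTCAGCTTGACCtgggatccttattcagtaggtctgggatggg
Med13l member, chr5:118812958-118813158: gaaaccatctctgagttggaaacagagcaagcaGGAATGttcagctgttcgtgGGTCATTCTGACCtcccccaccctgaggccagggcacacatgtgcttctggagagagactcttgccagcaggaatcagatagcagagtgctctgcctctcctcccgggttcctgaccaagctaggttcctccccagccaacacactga
Rybp member, chr6:100059990-100060190: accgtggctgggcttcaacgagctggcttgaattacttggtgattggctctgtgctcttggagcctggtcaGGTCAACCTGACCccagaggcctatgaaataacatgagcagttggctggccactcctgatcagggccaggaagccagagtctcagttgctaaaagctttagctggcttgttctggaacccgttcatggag

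Members were compact and spread over the genome. Their median width was 747 bp (range 220 to 2050), and 692 of them (45.6%) were called in all 5 lists. Of the 825 called in 4, vehicle replicate 1 was the list that lacked a q of 0.05 for 580 (70.3%), and 339 of those 580 had a weaker peak there. The median distance to the nearest transcript start of any kind was 16661 bp, and 495 members (32.6%) lay within 10000 bp of one. Protein-coding starts were farther away, at a median of 40792 bp, with 390 members (25.7%) more than 100000 bp from any. In RefSeq, 16.9% of members had their midpoint inside a gene, so "intergenic" depends on the annotation. At the edges of the rule, the weakest fourth-best list among members had a −log10 q of 1.302, at a member near Gm2832, and the strongest outside it had 1.298, near 1700016D06Rik. The member closest to a transcript start lay 3035 bp from it, and the intergenic region just inside the promoter window lay at 2987 bp, near Col6a1.

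Lists differed in depth and in how much of their signal passed. They held from 30062 to 110724 peaks of p of 0.01 or less, of which 7.35% to 46.4% had a q of 0.05 or less. This passing share was 17.9% to 46.4% in the 5 choosing lists and 7.35% to 24.7% in the other 7, where fulvestrant replicate 2 had the highest. The background recovered from the peaks ranged from 0.713 to 1.42 tags per window, so a peak needed 3 to 5 tags at the least. No peak in a list therefore means not detected, not closed. Vehicle replicate 1 had the lowest background and listed 84.1% of members, but it was a choosing list, so that share follows in part from the rule. Among the 7 libraries outside the choice, vehicle replicate 2 had the lowest background (0.799 tags) and listed 19.2%. Fulvestrant replicate 2 (0.952 tags) listed 34.7%, and fulvestrant replicate 3 had the highest background (1.42 tags) and listed 15.8%. Whether depth set these shares was not tested. Among the 14 fibroblast markers, 7 had a reproducible promoter region (Pdgfra, Pdgfrb, Dcn, Col1a1, Col1a2, Fn1 and Twist1), where 37.6% of all protein-coding genes had one. Thy1, Lum, Col3a1, Postn, Twist2, Prrx1 and Tcf21 had none. The markers of skeletal muscle (8), endothelium (6), immune cells (6), and smooth muscle and pericytes (5) had 0.

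In the 5 lists used to choose them, members had peaks under every treatment. The share with a peak was 84.1% in vehicle replicate 1, 95.4% in vehicle replicate 3, 99.2% in E2 replicate 1, 98.2% in E2 plus fulvestrant replicate 1 and 98.8% in fulvestrant replicate 1. The median fold enrichment over local background of those peaks was 4.09, 5.61, 4.96, 5.26 and 5.48, in the same order. The 3 libraries with E2 or fulvestrant lay between the vehicle pair in fold enrichment, and these values carry no test.

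The other 7 libraries listed few of the members. A peak of p of 0.01 or less was found at 19.2% of members in vehicle replicate 2, where 11.7% of all reproducible regions had one. In E2 the shares were 14.6% in replicate 2 and 13.0% in replicate 3, against 8.85% and 5.63% of all reproducible regions. In E2 plus fulvestrant they were 13.0% in replicate 2 and 14.4% in replicate 3, against 5.9% and 11.4%. In fulvestrant they were 34.7% in replicate 2 and 15.8% in replicate 3, against 41.2% and 11.9%. Fulvestrant replicate 2 thus stood above the other 6, whose shares ran from 13.0% to 19.2%. Wilson 95% intervals, which cover counting error only, were 11.4% to 14.8% for the lowest share and 32.3% to 37.1% for the highest.

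**Figure D1:**
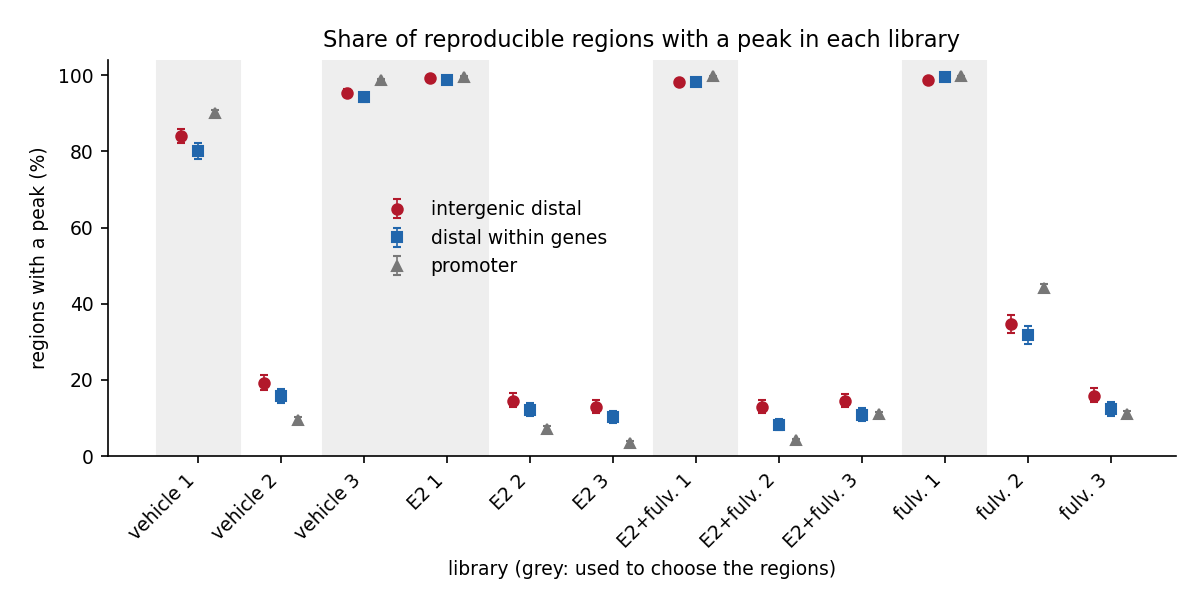
Share of regions with a peak (y axis, %) in each of the 12 libraries (x axis) for intergenic distal, genic distal and promoter regions, with Wilson 95% intervals; grey bands mark the 5 libraries that chose the regions. Intergenic members range from 13.0% to 34.7% in the 7 unshaded libraries and lie above distal regions within genes in each of them.

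These 7 lists also held few of the promoter regions, with peaks at 3.39% to 44.1% of them. The promoter regions were chosen by the same 5 lists, so the 90.1% to 99.8% found there follows largely from the rule. A share with a peak may reflect the library as well as the treatment, and what sets the 7 lists apart was not tested. E2 and fulvestrant were compared over them, to ask whether estrogen signaling changed how many members had a peak. Between E2 (13.8% ± 1.12, SD, n = 2) and E2 plus fulvestrant (13.7% ± 1.03, SD, n = 2) the difference was 0.0659 percentage points, smaller than the spread within either group (exact two-sided permutation test, p = 1, smallest possible p 0.333). Libraries with any fulvestrant averaged 19.5% ± 10.2 (SD, n = 4) and those without 15.6% ± 3.22 (SD, n = 3), a difference of 3.90 points (exact permutation test, p = 0.857, adjusted p = 1 over 3 comparisons). Without fulvestrant replicate 2 that difference was −1.16 points. Libraries with any E2 averaged 13.7% ± 0.877 (SD, n = 4), and those without averaged 23.2% ± 10.1 (SD, n = 3). The 4 E2 libraries lay below all 3 others. The difference of −9.48 points gave p = 0.0571 by the exact permutation test, the smallest that 35 arrangements allow, and 0.171 after adjustment, so it could not pass 0.05. It was −3.76 points without fulvestrant replicate 2 and −3.57 points when a peak had to cover 50% of the member. After subtracting the share of distal regions within genes in the same library it was 0.0639 points.

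Intergenic members were listed more often than distal regions within genes in 7 of 7 libraries. The mean shares were 17.8% ± 7.73 and 14.4% ± 7.96 (SD, n = 7 libraries), a mean difference of 3.39 points with a range of 2.41 to 4.81 (exact two-sided sign-flip permutation test, p = 0.0156, the smallest that 7 libraries allow; adjusted p = 0.0312 over 2 comparisons). The difference was 2.23 points for peaks of q of 0.05 or less and 1.73 points for regions with a single-copy summit, each again in the same direction (p = 0.0156 in the same exact test). All 7 libraries scored the same regions, so these p-values cover spread between libraries and not between regions. Removing regions with a peak in all 12 lists took out 248 intergenic regions, 180 within genes and 163 promoters. With those kept, the difference from distal regions within genes was 5.07 points. Against promoter regions, at 12.9% ± 14.1 (SD, n = 7), the members were higher by 4.90 points on average and in 6 of 7 libraries, which did not pass (exact permutation test, p = 0.109). In fulvestrant replicate 2 promoters led, at 44.1% against 34.7%. Without that library the difference was 7.29 points (exact permutation p = 0.0312). For single-copy summits it was 0.600 points and for regions in all 5 lists 0.779 points, and with the regions in all 12 lists kept it was 14.7 points (exact permutation p = 0.0312).

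The number of lists with a peak separated members of different sequence. Most members were in 5 lists (665) or 6 (332), with 173 in 4 and 109 in 7, and then a second group appeared: 43 were in 8, 47 in 9, 60 in 10 and 88 in 11. Summits were called single-copy where at least 1 of 3 adjoining 32-base words centred on the summit occurred only once in GRCm38, and 1383 members (91.2%) met this. Of the 1279 members in 4 to 7 lists, 1.80% had a multi-copy summit. Of the 195 in 9 to 11 lists, 52.3% did. AP-1 letters ran the other way, at 21.3% of members in 4 to 7 lists and 3.08% of those in 9 to 11. Among single-copy members alone, AP-1 letters were found at 271 of 1256 (21.6%) in 4 to 7 lists and at 1 of 93 (1.08%) in 9 to 11. Over all members, single-copy or not, the median repeat-masked share of the window was 0% in 4 to 7 lists and 40.8% in 9 to 11. These are descriptions over regions, with no test.

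**Figure D2:**
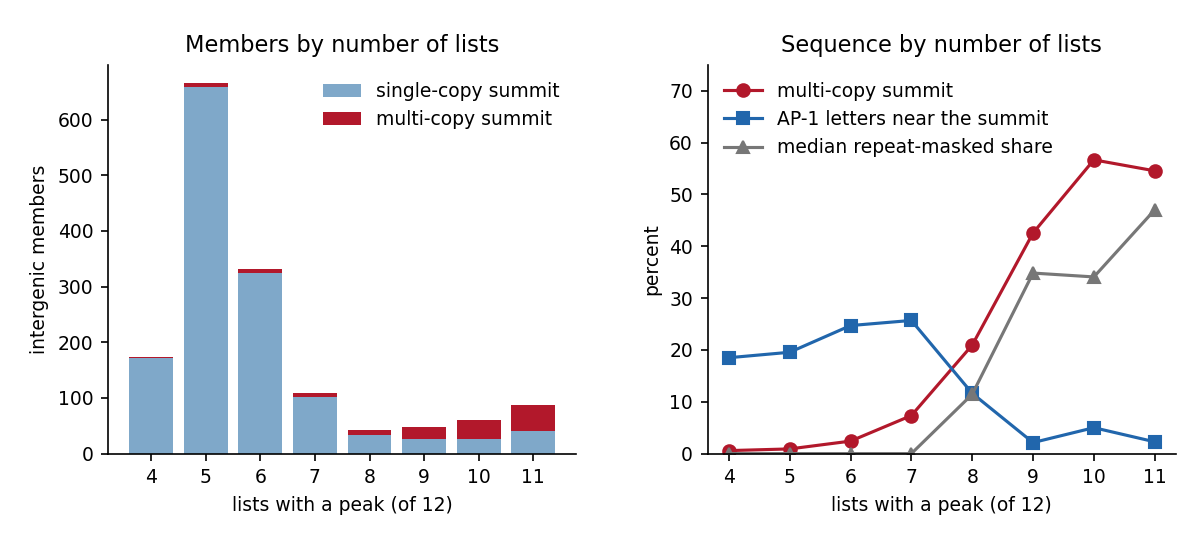
Left, number of intergenic members (y axis) by number of the 12 lists with a peak (x axis), split by copy number of the summit. Right, percent of members with a multi-copy summit or AP-1 letters, and the median masked percent of the window within 100 bp of the summit: from 7 lists to 11, AP-1 letters go from 25.7% to 2.27% while masked sequence goes from 0% to 47.0%.

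Multi-copy members were found in most lists whatever the treatment. The 134 multi-copy members had a peak in 63.4% to 77.6% of cases in each of the 7 other libraries, against 7.74% to 31.9% for the 1383 single-copy members, and were higher in all 7. They made up 35.7% to 45.7% of the members listed in 6 of those libraries and 16.2% in fulvestrant replicate 2. On average a multi-copy member had a peak in 4.84 of the 7 libraries and a single-copy member in 0.898. Their mean fold enrichment in the 5 choosing lists, with a missing peak counted as 0, was lower, with a median of 3.64 against 5.13. Multi-copy members were 8.83% of intergenic members, 5.79% of distal regions within genes, 2.18% of promoter regions and 55.6% of the intergenic regions with a peak in all 12 lists. How reads with several matches were placed was not tested.

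Single-copy members were listed in another order in fulvestrant replicate 2 than in the other 6 libraries, a description with no test. They were ranked by mean fold enrichment in the 5 choosing lists, where a list without a peak counted as 0. They were then divided into 4 groups of like size. The weakest 346 members ran from 2.17 to 4.28 and the strongest 346 from 6.28 to 14.6. A low rank thus partly reflects a missing peak: vehicle replicate 1 listed 62.7% of the weakest group and 99.1% of the strongest. In fulvestrant replicate 2 the shares listed were 20.2%, 20.2%, 28.7% and 58.4% from the weakest group to the strongest. In the other 6 libraries the weakest group had the highest share, and the other groups followed no order common to all 6. From weakest to strongest, vehicle replicate 2 had 23.99%, 9.54%, 11.01% and 9.54%. The E2 libraries had 18.2%, 7.51%, 5.80% and 5.78% in replicate 2, and 17.1%, 5.49%, 4.35% and 4.05% in replicate 3. The E2 plus fulvestrant libraries had 15.03%, 6.07%, 5.80% and 4.91% in replicate 2, and 14.5%, 7.51%, 5.80% and 10.1% in replicate 3. Fulvestrant replicate 3 had 18.8%, 6.36%, 5.51% and 8.96%. The strongest group was thus above both middle groups in 3 of the 7 libraries.

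**Figure D3:**
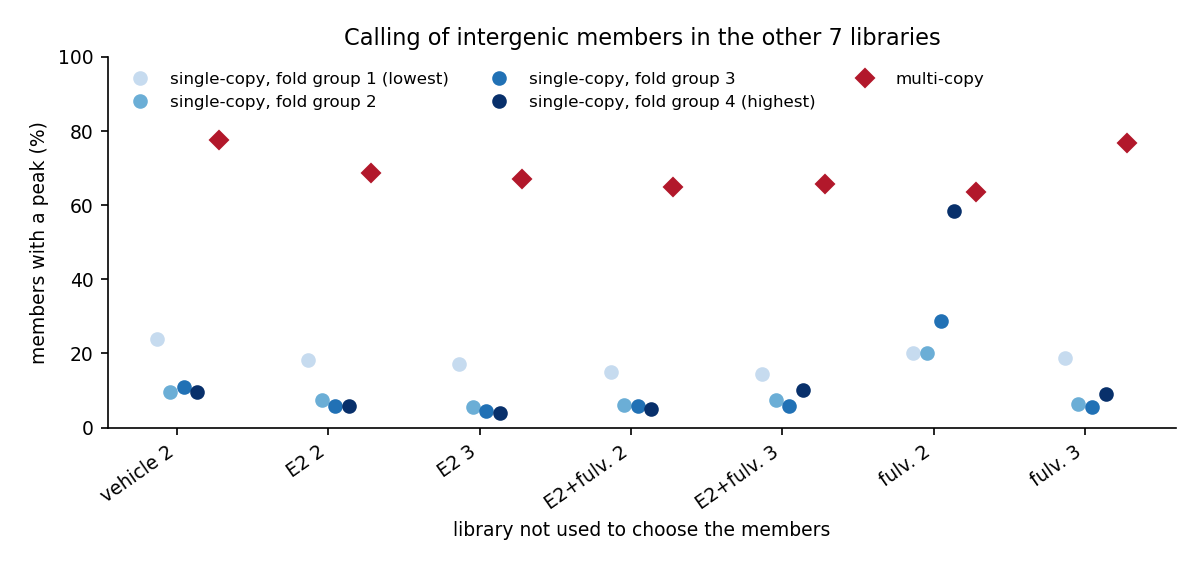
Share of intergenic members with a peak (y axis, %) in the 7 libraries not used to choose them (x axis). Circles are single-copy members in 4 groups by mean fold enrichment in the 5 choosing lists (a missing peak counted as 0), diamonds are multi-copy members. Multi-copy members lie at 63.4% to 77.6% everywhere, and the strongest single-copy group reaches 58.4% in fulvestrant replicate 2.

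AP-1 letters gave a like contrast between libraries. Single-copy members with AP-1 letters (276) were listed at 33.7% in fulvestrant replicate 2, beside 31.4% of the 1107 without. In vehicle replicate 2 the shares were 10.5% and 14.3%. In the E2, E2 plus fulvestrant and remaining fulvestrant libraries members with AP-1 letters had 2.54% to 5.43%, and those without had 8.85% to 11.5%.

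The 10 members in the most lists each had a peak in 11. The member 137177 bp from Mettl4 (chr17:94887027-94887365) had the highest median fold enrichment of these, and 75.1% of its window was repeat-masked. It had no peak in vehicle replicate 1, fold enrichments of 16.8 and 6.94 in vehicle replicates 2 and 3, of 10.2, 14.9 and 17.8 in E2 replicates 1 to 3, of 7.12, 16.8 and 9.40 in E2 plus fulvestrant and of 9.49, 13.3 and 11.99 in fulvestrant. In every treatment the choosing library in which it was listed had the lowest value. The Peg10 member, whose printed window is a tandem repeat that is not masked, ranged from 4.55 to 8.88 in 11 lists. Of the 195 members in 9 to 11 lists, 102 had a multi-copy summit, 35 more were over 50% masked, and 58 had neither.

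The 2 largest runs of neighbouring members had multi-copy summits throughout. Members no more than 25000 bp apart formed 143 runs with 345 members. The longest, chr6:114502136-114629714 between Hrh1, a histamine receptor gene, and Atg7, an autophagy gene, held 18 members over 127579 bp. None of its summits was single-copy, with 4 to 53 copies, every member was in 8 to 11 lists, and 0 had AP-1 letters. It also placed Atg7 (10 members) and Hrh1 (8) among the 8 genes with the most members. A run of 8 near Gm31371 on chr8 (20025391 to 20100611) and a run of 5 near Gm10354 on chr5 (14970492 to 15005247) had 0 of 8 and 1 of 5 single-copy summits, with means of 9.75 and 10.2 lists. The runs near Gm21149 and Gm21190, near Mup17, a major urinary protein gene, and near Ezh2, a histone methyltransferase gene, held 4 members each, of which 1, 3 and 1 were single-copy, and had means of 10.5, 9.25 and 8.25 lists.

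A further 2 runs were single-copy throughout. Near Lnx1, a ubiquitin ligase gene, 5 members lay in 29967 bp (chr5:74775430-74805396), each in 4 to 6 lists, and 2 had AP-1 letters. The member printed above had fold enrichments of 10.4 in vehicle replicate 3, 6.85 in E2 replicate 1, 6.67 in E2 plus fulvestrant replicate 1, 6.78 in fulvestrant replicate 1 and 4.63 in fulvestrant replicate 2, and no peak in the other 7 libraries. Near Cpn2, which encodes a subunit of a plasma carboxypeptidase, 5 members lay in 19070 bp (chr16:30171659-30190728) and were GC-rich, at 54.2% to 64.2%. The strongest had 4.17 and 6.91 in vehicle replicates 1 and 3, 7.36, 3.20 and 2.97 in E2 replicates 1 to 3, 8.91 in E2 plus fulvestrant replicate 1 and 10.1 in fulvestrant replicate 1. Outside the choosing lists only E2 replicates 2 and 3 listed it, at its lowest values. A peak in both of these and in neither E2 plus fulvestrant replicate 2 nor 3 was found at 0.923% of members and 0.524% of all reproducible regions. Other genes with many single-copy members were Zfp386 (8), Irf2bp2 (6) and Med13l (6). The Zfp386 members lay 224020 bp or more away and were in a median of 9.5 lists.

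In base composition and motif letters the members were closer to distal regions within genes than to promoters. Median GC was 52.2% in both distal classes and 65.2% at promoters, with 3, 3 and 17 CpG in the window. AP-1 letters were at 18.7% of members, 19.03% of distal regions within genes, 4.74% of promoters and 8.56% of all reproducible regions. TEAD letters were at 15.4%, 16.9%, 7.39% and 9.74% in the same order, and RUNX letters, TGTGGT, at 15.2%, 18.1%, 8.04% and 10.3%. The E-box CAGCTG, bound by myogenic and related factors, was at 21.5%, 23.9%, 10.8% and 14.004%. Promoters led for the GC box GGGCGG of Sp and KLF factors, at 13.4%, 10.2%, 61.6% and 48.1%, and for the ETS letters CCGGAA, at 3.69%, 3.62%, 22.2% and 17.2%. All were searched on both strands, and shorter letters match by chance more often, so shares compare between classes and not between motifs. The element CRE, TGACGTCA, was at 0.725% of members and 3.06% of promoters, and the CTCF element at 1.58% and 0.872%.

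**Figure D4:**
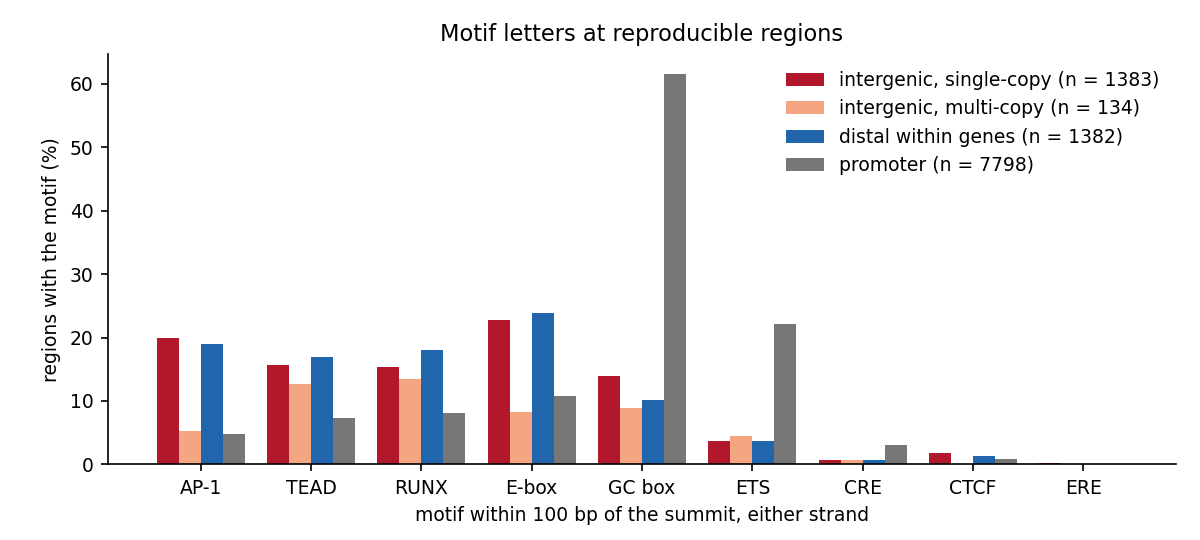
Percent of regions (y axis) with each motif's letters within 100 bp of the summit (x axis) in 4 classes of region; legends give the number of regions. AP-1 letters are at 19.96% of single-copy intergenic members and 5.22% of multi-copy ones, and the GC box stands at 61.6% of promoters.

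CpG-rich members formed a subset. With 10 or more CpG in the window there were 213 members (14.04%), and 6.80% of distal regions within genes. Their median GC of 63.7% and GC boxes at 54.5% follow in part from that choice. ETS letters were at 10.3% of them, between the 3.69% of all members and the 22.2% of promoters, and AP-1 letters at 8.92%. CpG-rich members had a peak more often than the other members in fulvestrant replicate 2 (43.2% and 33.3%) and E2 plus fulvestrant replicate 3 (16.4% and 14.1%). They had one less often in the other 5 libraries, at 8.92% to 15.96% beside 13.5% to 19.7%.

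Full EREs were rare. They were found at 3 of 1517 members (0.198%), 1 distal region within genes (0.0724%) and 1 promoter region (0.0128%). Over all reproducible regions the share was 0.0467%, and all 3 members were single-copy. The member 99766 bp from Pgrmc2, a membrane progesterone receptor component, had fold enrichments of 3.50 and 6.31 in vehicle replicates 1 and 3, 6.79 in E2 replicate 1, 7.02 in E2 plus fulvestrant replicate 1 and 4.39 in fulvestrant replicate 1. It had no peak in the other 7. The member 62531 bp from Med13l, a Mediator kinase module gene, had 4.33 and 5.90 in the same vehicle libraries. It had 9.36 in E2 replicate 1, 7.50 in E2 plus fulvestrant replicate 1, and 8.88 and 2.45 in fulvestrant replicates 1 and 2. The member 173075 bp from Rybp, a Polycomb protein gene, had 3.99 in vehicle replicate 3, 8.21 in E2 replicate 1, 6.34 in E2 plus fulvestrant replicate 1, and 5.20 and 2.86 in fulvestrant replicates 1 and 3. The E2 and E2 plus fulvestrant values of these members come from replicate 1, a choosing library in each treatment, and carry no test. None of the 3 was listed in E2 replicates 2 or 3, so there was no replicate check.

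Few members divided E2 from E2 plus fulvestrant in the libraries not used to choose them. With a peak in E2 replicates 2 and 3 and in neither E2 plus fulvestrant replicate 2 nor 3 there were 14 members (0.923%), against 0.524% of all reproducible regions. The reverse held for 10 members (0.659%), against 0.477%. Distal regions within genes had 1.23% for the first pattern and 0.289% for the reverse, and promoter regions 0.321% and 0.474%. Of the 14, 8 were single-copy, and of the 10, 5 were. The first of the 14 by its lower fold enrichment lay 100376 bp from Kcna5, a potassium channel gene (chr6:126434447-126435624). It had fold enrichments of 4.30, 6.38 and 3.48 in vehicle, 4.88, 5.56 and 4.25 in E2, 3.44 in E2 plus fulvestrant replicate 1, and 3.70 and 3.15 in fulvestrant replicates 1 and 3. It was therefore listed in E2 plus fulvestrant once, in the choosing library. The others named by the same order lay near Gm21149, Acadm, Adam29 and 1700069L16Rik.

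On the reverse side the member 18536 bp upstream of Fos, an AP-1 subunit gene, was listed (chr12:85454949-85455759). Its fold enrichments were 8.94 and 13.1 in vehicle replicates 1 and 3, 15.5 in E2 replicate 1, 15.04, 3.31 and 4.07 in E2 plus fulvestrant, and 14.5, 7.43 and 3.52 in fulvestrant. In replicate 1 it was as strong with E2 as with E2 plus fulvestrant. A member 6182 bp from Zfp869 (chr8:69716364-69717447) had 8.05, 2.78 and 12.8 in vehicle, 14.4 in E2 replicate 1, 14.2, 4.25 and 4.17 in E2 plus fulvestrant, and 12.5, 6.14 and 3.85 in fulvestrant. Both were high in each choosing library and lower in each of the others in which they were listed. The other 3 lay near Gm21961, Gm3642 and Atg7 and had multi-copy summits.

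Members were assigned to the nearest protein-coding start to see which genes they surround. This gave 1168 genes, 5.38% of 21728, of which 937 had 1 member and 63 had 3 or more. Genes in sparse regions collect more members, so shares of lists are set beside 5.38% as a description. Fibroblast identity genes had members at 8 of 30 (26.7%). Matrix and TGF-beta genes had them at 9 of 26 (34.6%), mesenchymal transcription factors at 8 of 39 (20.5%), the AP-1 family at 3 of 13 (23.1%), and the genes that the study had singled out at 5 of 15 (33.3%), a list chosen by the study partly on these samples and so no independent evidence. Skeletal muscle genes (16), immune genes (8), smooth muscle and pericyte genes (7) and YAP and TEAD pathway genes (12) had 0, and endothelial genes had 1 of 8. Estrogen receptor and target genes had 1 of 13 (7.69%), Ccnd1, the cyclin D1 gene, 90992 bp away.

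Both genes for type I collagen had members upstream. Col1a1, which encodes a chain of type I collagen, had 3, at 7246, 54118 and 63114 bp. The nearest (chr11:94928691-94929265) had fold enrichments of 6.05 and 7.27 in vehicle replicates 1 and 3, 10.05 in E2 replicate 1 and 9.49 in E2 plus fulvestrant replicate 1. It had 8.76 in fulvestrant replicate 1 and 3.57 in fulvestrant replicate 2, and no peak in the other libraries. Col1a2, the other chain, had 2, at 47226 and 85615 bp, in 5 lists each. Osr1, a transcription factor gene of connective tissue, had 3, and Meox1, a homeobox gene of activated fibroblasts, had 2. The 2 endothelial-list members both belonged to Cdh5, the nearest 78534 bp from its start.

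Around matrix genes, Thbs2, a thrombospondin gene, and Cxcl12, a chemokine gene, had 3 members each, Ltbp2, a latent TGF-beta binding protein gene, had 1, and Mmp2, a gelatinase gene, had 1 at 8927 bp. Klf4, a transcription factor gene, had 4, from 118930 to 581352 bp upstream. The farthest (chr4:56113367-56114268) was in 7 lists, with 6.45 and 13.0 in vehicle replicates 1 and 3, 10.8 in E2 replicate 1, 15.3 in E2 plus fulvestrant replicate 1 and 12.4 in fulvestrant replicate 1. Outside the choosing lists it had 2.22 in vehicle replicate 2 and 7.43 in fulvestrant replicate 2. Sox9 and Ebf1 had 2 each, 160926 bp or more away. All of the members named around Col1a1, Col1a2, Thbs2, Cxcl12, Klf4, Sox9 and Ebf1 were single-copy.

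Of the genes that the study singled out, Adamts6, a matrix protease gene, had 3 members, downstream of the gene at 192365, 211263 and 233677 bp from its start. The farthest (chr13:104540593-104541454) had 6.40 and 9.60 in vehicle replicates 1 and 3, 9.43 in E2 replicate 1, 11.02 in E2 plus fulvestrant replicate 1 and 11.3 in fulvestrant replicate 1. Outside the choosing lists its only peak was in fulvestrant replicate 2, at 5.12. The E2 value lay within the range of the vehicle pair. Piezo2, a mechanosensitive channel gene, had 1 member at 114642 bp, Ncam1, a cell adhesion gene, 1 at 191152 bp, and Ccn3, a matricellular gene, 1 at 12625 bp.

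**Figure D5:**
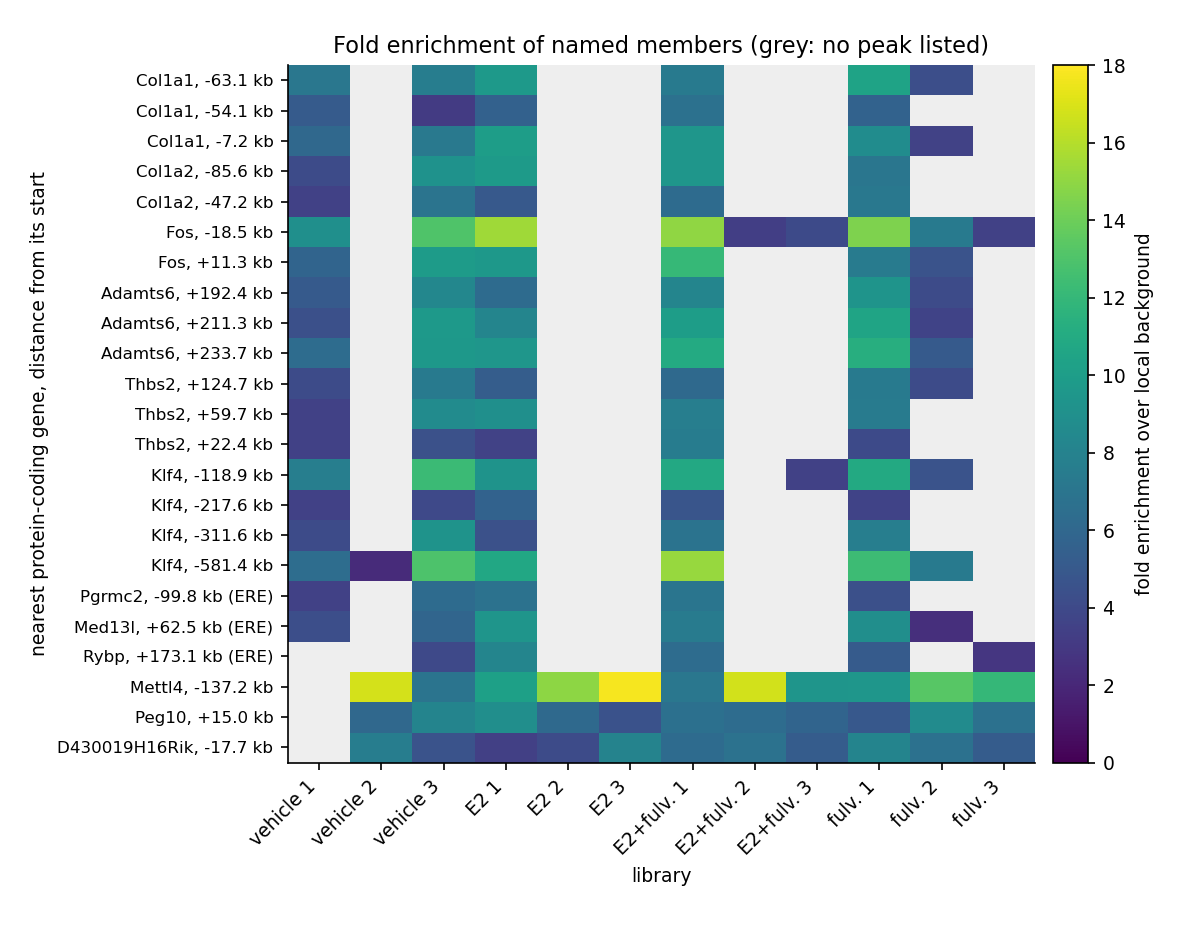
Fold enrichment over local background (colour) of named members (y axis, by nearest protein-coding gene and distance from its start, negative upstream) in the 12 libraries (x axis); grey means no peak listed. Members near Col1a1, Col1a2, Adamts6, Thbs2 and Klf4 and those with EREs are coloured mainly in the 5 choosing libraries, while 1 of the 2 Fos members is listed in 9 libraries. The 3 members at the bottom, among the 10 in the most lists, are listed in 11, with values up to 17.8.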

How the data were processed

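The authors made the lists. Per the methods of the study, reads were trimmed with Trimmomatic 0.39, aligned to mm10 with Bowtie2, freed of duplicates with Picard 2.21.4 and called with MACS2 (shift of −100 bp, extension to 200 bp), and tool names were also taken from the submitters' processing notes. Excluded regions (the ENCODE list) were not used here.

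Each library had 1 deposited list, not pooled, with peaks down to p of 0.01. In it the authors give every peak a score, not used here, a fold enrichment (a ratio of tags to local background) and its p-value and q-value as −log10. No counts were in the lists, so no count test was run.

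Regions were built on chromosomes 1 to 19 and X. A region had a peak in a library if any deposited peak overlapped it by 1 bp. Groups were taken from the labels. Shares in the 7 libraries outside the choice were compared by exact permutation over libraries (two-sided p, 2 times the smaller tail), or by flipping signs of differences within libraries, with Benjamini-Hochberg adjustment. Depth came from solving fold enrichment and p for whole tags within 0.002. Motifs and copies (32-base words) were read from GRCm38, with Python 3.11.15, pandas 2.3.3 and scipy 1.17.1. The overlap, motif and permutation steps were tested on simulated data. Peaks of q of 0.05 or less, stricter overlap, all 5 lists, wider promoter windows, single-copy summits, a replicate block and leaving out each library were tried. Named members followed fixed rules: the 10 in most lists, the 8 largest runs, up to 4 genes a list, all with EREs, up to 5 each way between E2 and E2 plus fulvestrant, those at the thresholds and the 8 genes with most members. The Fos sequence was chosen after values were seen. The sequences of some other members are not reported here. The members and gene lists were chosen with earlier results of these data known.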

Additional observations from a re-analysis of the deposited data

Results flagged for a closer look

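The share of members with a peak in fulvestrant replicate 2, 34.7%, stood apart from the other 3 libraries with fulvestrant that were not used to choose the members (Dixon ratio of gap to range 0.869 over 4 libraries). In the same library the intergenic share minus the promoter share was −9.43 points, apart from the other 6 (ratio 0.681 over 7), and the multi-copy share minus the single-copy share was 31.5 points, again apart from the other 6 (ratio 0.696 over 7). All 3 rest on that library. Chance alone marks about 1 in 20 such groups.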

How the results depend on the processing

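The difference between intergenic members and distal regions within genes kept its direction under all 14 alternatives. Its p in the exact sign-flip test was 0.0156, or 0.0312 with 1 library left out. The p-values of the alternatives were not adjusted over the 2 comparisons. The difference against promoters kept its direction in 14. Before adjustment it passed with regions in all 12 lists kept (14.7 points) and without fulvestrant replicate 2. Leaving out 1 library gave 4.12 to 7.29 points. E2 minus E2 plus fulvestrant turned negative with the summit inside the member (−0.033 points), members in all 5 lists (−1.16), single-copy summits (−0.181) and the share of distal regions within genes subtracted (−1.63), and ranged from −0.725 to 0.857 when 1 library was left out, where 1 library in a group allows no test. Any fulvestrant against none was −0.297 points when a peak had to cover 50% of the member, and −1.16 to 6.06 with 1 library left out. Any E2 against none turned to 0.0639 points with the share within genes subtracted, was −3.57 when a peak had to cover 50% of the member, and ran from −13.2 to −3.76 with 1 library left out. The cause was not tested. With a replicate block (differences within numbers 2 and 3) the 3 comparisons were 0.0659, 4.55 and −7.63 points, and no call changed. The numbers were not treated as pairs, since deviations of same-numbered libraries of E2, E2 plus fulvestrant and fulvestrant correlated at 0.00934, 0.0038 and −0.0645 over regions. Vehicle was not part of that check. Per the methods of the study, batch effects were removed from its ChIP-seq and ATAC-seq data. Whether the replicate number follows a batch was not tested. At a floor of 3 to 5 tags per peak, a region without a peak was not detected rather than shown closed, and 7 libraries limit every test.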
